A study of Mus musculus with 2 samples.

Results

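Complex I subunit genes were taken as the protein-coding genes of the GENCODE M21 annotation whose symbols begin with Ndufa, Ndufb, Ndufc, Ndufs or Ndufv followed by a digit, together with Ndufab1. This rule found 38 genes among the 55536 mouse genes of the tables. They lay on 15 chromosomes, and each was measured in every library. Total RNA came from heart samples of adult female 5xFAD/CAST mice at 8 to 10 months of age, and the series held 2 libraries in 1 group. Both libraries were described as a cross of 5xFAD with the wild-derived CAST strain. The 5xFAD transgenes are human disease genes driven by the largely neuronal Thy1 promoter. That description names no further parental strain, and no animals labelled as without the transgenes were analysed here. The labels named separate biosamples but the same donor identifier for the 2 libraries, so an SD over them measured only the spread between these samples, which may be technical. With no second group, no contrast between conditions could be tested, and the values below are descriptions of levels, of the distance between replicates and of the distance between quantifications.

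Complex I is the entry point of the mitochondrial respiratory chain. It oxidises NADH through a flavin and a chain of iron-sulphur clusters in its N module, hands the electrons to ubiquinone in its Q module, and couples this to proton pumping in its membrane arm. The core of the membrane arm is encoded in mitochondrial DNA, while the redox-active core and all accessory (supernumerary) subunits are encoded in the nucleus. Heart muscle, which depends on oxidative metabolism, is rich in the complex.

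The libraries held 45599940.1 and 40801299 expected counts, of which the 38 genes took 311074 in replicate 1 and 274308 in replicate 2. All 7 heart muscle markers were present, from Ryr2 (374 and 357 TPM) to Myl2 (7437 and 8327). All but Ryr2 were higher in replicate 2, and Actc1 differed most (2766 and 4210 TPM). The 3 lung markers summed to 0.0503 TPM in each library, with Sftpc at 0. The 3 blood markers summed to 1480 and 1751 TPM and the 4 white fat markers to 18.4 and 28.4, both higher in replicate 2. The 4 brown fat markers summed to 12.9 and 14.8 TPM, nearly all of it Cidea (12.1 and 13.2). The 3 fibroblast markers summed to 130 and 143 TPM, and the 3 endothelial markers to 82.9 and 87.2. The 6 skeletal muscle markers summed to 1232 and 1348 TPM, nearly all of it Ckm, which heart muscle also expresses. Their part in the results below was not tested. In bulk tissue, fewer cells of a type and less RNA per cell cannot be told apart.

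TPM is a relative abundance of transcripts, corrected for their length. It is given here over endogenous genes, from the tables made by alignment to the transcriptome unless the tables made directly from reads are named. Subunit genes were among the most abundant nuclear transcripts of these samples. Their median level was 281 TPM in replicate 1 and 295 in replicate 2, and 36 of the 38 stood at 100 TPM or more in both libraries. Of the 11034 protein-coding genes with a mean of at least 1 TPM the median was 7.57 TPM, and 37 of the 38 lay above the 90th percentile of 43.5 TPM. Their median percentile was 98.3. Summed, they made up 3.94% and 3.87% of the TPM that fell on nuclear genes coding for proteins. The levels of the 36 genes left without Ndufa4 and Ndufa4l2 spanned 8.25-fold, with quartiles at 230.1 and 418 TPM. The order of the members was nearly the same in the 2 libraries (Spearman's rho across the 38 genes 0.995, a description over genes that share the libraries).

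**Figure D1:**
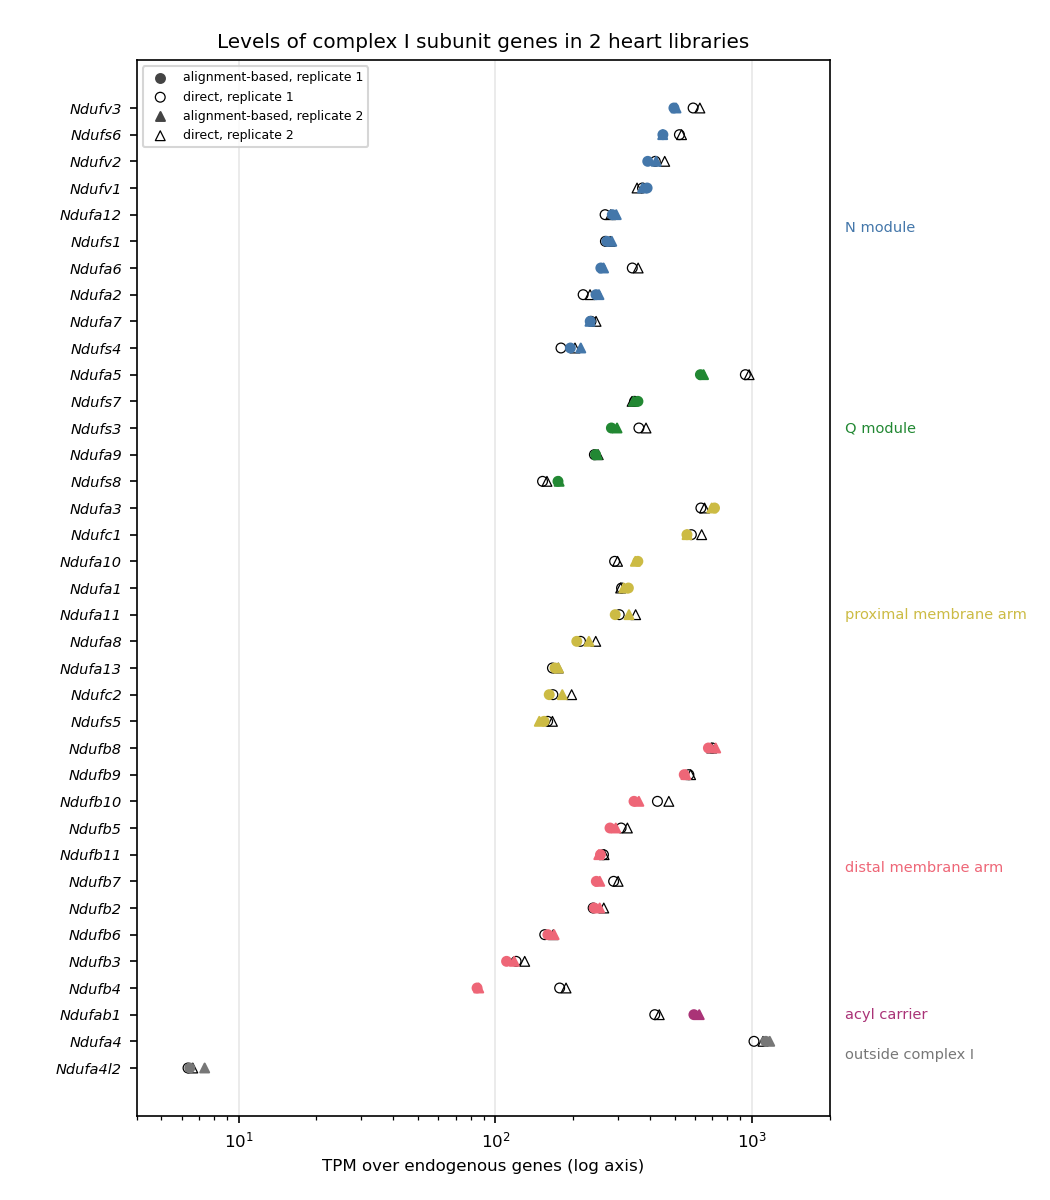
TPM over endogenous genes (log axis) of 37 members, ordered by module; filled symbols are the alignment-based tables, open symbols the direct tables, circles replicate 1 and triangles replicate 2. All but Ndufa4l2 and, in the alignment-based tables, Ndufb4 stand above 100 TPM, and the symbols of the 2 libraries lie close together.

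The 10 N module genes encode the NADH-oxidising tip, and they lay within the narrowest range of the 4 modules, from a mean of 205 TPM to 500.3. At the top was Ndufv3, an accessory subunit, with 496 and 505 TPM. Ndufs6, a zinc-binding subunit, held 449 and 448 TPM. Of the catalytic core, Ndufv2, which carries an iron-sulphur cluster, held 392 and 423 TPM. Its partner Ndufv1, which binds the flavin and NADH, held 389.7 and 374 TPM. This pair stood at nearly the same level in replicate 1 and apart in replicate 2. Ndufs1, the largest subunit, held 271 and 284 TPM. The accessory genes Ndufa12, Ndufa6, Ndufa2 and Ndufa7 lay between 234 and 290.3 TPM on average. The lowest was Ndufs4, an assembly-critical accessory subunit, with 196 and 215 TPM.

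The 6 Q module genes spanned a wider range, from 176 to 637 TPM on average. Ndufa5, an accessory subunit of this module, was the highest with 628 and 646 TPM. Ndufs7, which holds the last iron-sulphur cluster before ubiquinone, held 359 and 345 TPM. Ndufs3 held 283 and 298 TPM, and the accessory Ndufa9 held 245 and 249. The lowest was the cluster-bearing Ndufs8, with 175 and 177 TPM. Levels of genes whose proteins stand side by side in the complex thus differed by more than the spread between these libraries. That spread does not cover the difference between quantifications. In the direct tables Ndufa5 held 941 and 973 TPM and Ndufs3 held 362 and 386. The 7 core genes had a median of 359 and 345 TPM, and the 29 accessory genes other than Ndufa4 and Ndufa4l2 had a median of 257 and 264.

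In the proximal membrane arm, Ndufa3 (713 and 696 TPM) and Ndufc1 (557 and 558) stood above the other 7 genes. Ndufa10, Ndufa1, Ndufa11 and Ndufa8 lay between 219 and 355 TPM on average. Ndufa13, also known as Grim19, held 170.5 and 176 TPM, Ndufc2 held 162 and 182, and Ndufs5 was the lowest with 155 and 148. The distal arm, made of the Ndufb genes, had the widest range of the 4 modules. Ndufb8 held 675 and 721 TPM and Ndufb9 544 and 552, while the 5 genes Ndufb10, Ndufb5, Ndufb11, Ndufb7 and Ndufb2 lay between 248 and 354 TPM on average. Ndufb6 held 160.1 and 169 TPM, Ndufb3 held 110.5 and 118, and Ndufb4 held 84.8 and 86.1. The X-linked pair Ndufa1 (329 and 316) and Ndufb11 (256 and 253) lay near the median of all members. Among neighbours in the order, Ndufs3 and Ndufa12 (290.2 ± 10.4 and 290.3 ± 7.26 TPM, SD, n = 2) did not differ beyond the spread between libraries. This held in the alignment-based tables only. In the direct tables Ndufs3 stood at 373.9 ± 16.9 TPM and Ndufa12 at 274.3 ± 9.86, apart by more than that spread.

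Ndufab1, the mitochondrial acyl carrier protein that serves fatty acid synthesis and sits in the complex more than once, held 593 and 622 TPM. Ndufa4 carries a complex I name, but its protein is now counted as part of cytochrome oxidase. With 1129 and 1170.03 TPM it was the most abundant member by a wide margin in the alignment-based tables. Its level lay within the range of the listed nuclear complex IV genes (median 1021 and 1052). In the direct tables the margin was narrow, with 941 and 973 TPM for Ndufa5 against 1016 and 1102 for Ndufa4. Its paralogue Ndufa4l2, a hypoxia-induced gene, was by far the lowest with 6.45 and 7.37 TPM from 201 and 205 counts. The gene for a further subunit, annotated as Ndufb1-ps and as a long non-coding RNA, fell outside the rule for that reason. It was expressed all the same, with 142 and 147 TPM.

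The 7 mitochondrially encoded subunits stood far higher. Their median was 7382 and 7201 TPM, 26.3 and 24.4 times the median of the 36 nuclear subunit genes. The highest was mt-Nd1 (12361 and 12793 TPM). The lowest was mt-Nd6 (1562 and 1662), the subunit gene that lies on the other mitochondrial strand. Levels of 3 of them are uncertain, because nuclear copies on chromosome 1 hold 98.9% of the 31-base words of mt-Nd4l, 98.1% of those of mt-Nd3 and 62.8% of those of mt-Nd4. The copy of mt-Nd4l, Gm10222, was given 303 and 31.7 TPM in the alignment-based tables and 0 in the direct tables. The copy of mt-Nd3, Gm28438, was listed at 0 in the alignment-based tables and was given 257 and 22.8 TPM in the direct tables.

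Assembly factors, which build the complex but do not remain in it, stood far lower. All 19 of the 20 listed factors that are in the tables were detected at 1 TPM or more in both libraries, with a median of 18.7 and 20.2 TPM. They ranged from Nubpl (4.09 and 3.45), an iron-sulphur cluster carrier, to Tmem126a (39.1 and 42.1). No factor reached the level of the lowest structural subunit, Ndufb4. Nuclear subunit genes listed for the other complexes were higher at the median than those of complex I. Those lists were chosen, not found by a rule on symbols. The complex IV list names Cox6a2, Cox7a1 and Cox8b without their other isoforms. The 4 complex II genes had a median of 427 and 441 TPM, and the 9 complex III genes 516 and 542. The 10 listed complex IV genes had 1021 and 1052 TPM, and 14 of the 15 listed ATP synthase genes, those with an entry, had 639.6 and 665. The ranges of all of these lists overlapped that of complex I. Their lowest genes were Sdhd (214 and 225 TPM), Cyc1 (376 and 399), Cox7c (515 and 509) and Atp5g2 (25.8 and 23.0). The level of Atp5g2 depended on the quantification, with 175 and 193 TPM in the direct tables.

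The 2 libraries gave similar values for every subunit gene. The log2 ratio of scaled counts, replicate 2 over replicate 1, ranged from -0.17 for Ndufb4 to 0.18 for Ndufa4l2, with a median of -0.02 and a median size of 0.04. Over all 12495 genes whose counts averaged 50 or more the median was -0.01 and the median size 0.11. The mean count of these genes had a median of 542.5, against 6688 for the members, so counting error was smaller for the members. None of the 38 members was 2-fold apart, against 72 of 12495 genes (0.576%) and 33 of 11637 protein-coding genes (0.284%). None was even 25% apart, against 11.6% of all 12495 genes. With 1 library against 1 there is no replicate check on these ratios.

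Ndufb4 had the lowest ratio, with 1872 and 1504 counts, a 0.891-fold ratio (95% interval 0.832 to 0.954). The intervals are exact, from the counts of the pair, and cover counting error only. Ndufa1 followed with 0.915-fold (0.874 to 0.958) and Ndufs5 with 0.916-fold (0.864 to 0.971). At the other end, Ndufa4l2 stood at 1.13-fold (0.927 to 1.38), Ndufa11 at 1.08-fold (1.04 to 1.13) and Ndufc2 at 1.07-fold (1.03 to 1.12). The interval included 1 for 21 of the 38 members, among them Ndufa4l2. Scaled counts were lower in replicate 2 for 27 of the 38 members, against 51.2% of the 12495 genes, while TPM was higher in replicate 2 for 28 members, against 62.5%. The direction of these small differences thus depended on the scale. With spike-in totals as the scale all 38 were higher in replicate 2, against 88.5% of the genes, with a median log2 ratio of 0.20 against 0.21 over all genes. Relative to the median over all genes, the members' median was -0.019 in the main scaling and -0.018 with spike-in totals.

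**Figure D2:**
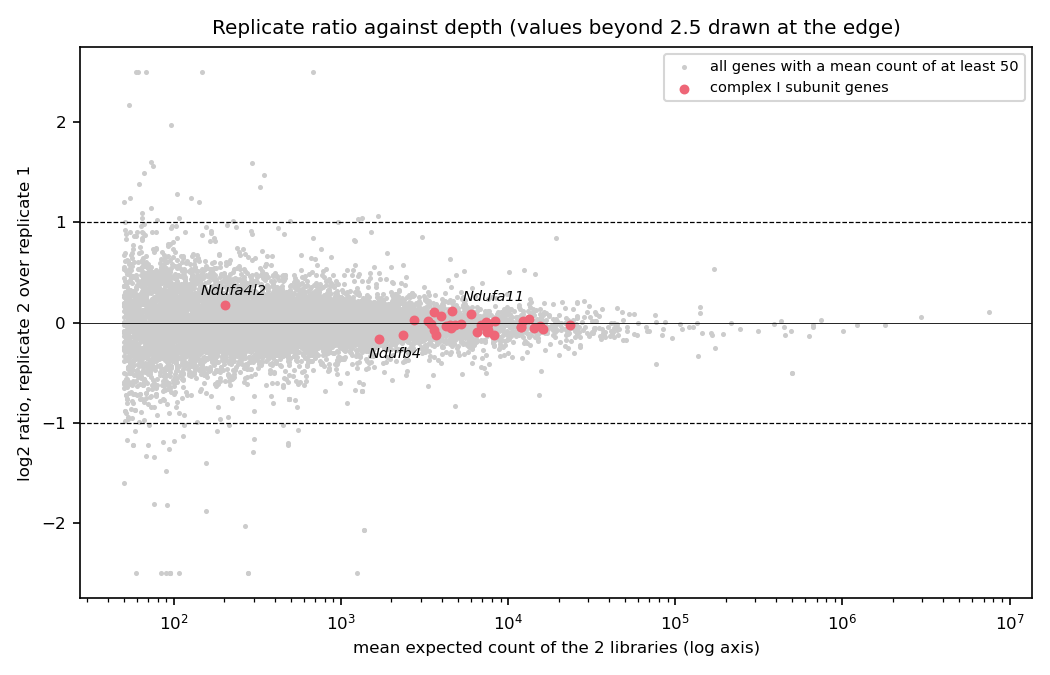
Log2 ratio of replicate 2 over replicate 1 (scaled expected counts) against the mean expected count (log axis); grey points are all 12495 genes whose counts averaged 50 or more, red points 37 members, dashed lines 2-fold. The members lie between -0.17 and 0.18, inside the cloud and far from the 2-fold lines.

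Each gene's level was then compared between the 2 kinds of table made from the same reads, as the log2 of direct over alignment-based TPM, each plus 0.5. Members were as close as other genes, with a median size of 0.11 against 0.11 over protein-coding genes. In both libraries 19 members were higher in the direct tables and 16 were lower. Counts by direction were not taken over all genes. The signed median was 0.03 for the members and -0.04 over all genes compared. Only Ndufb4 was 2-fold apart in both libraries, 1 of 38 against 4.03% of the 7337 genes compared and 0.846% of the 6859 protein-coding ones. Its level was 84.8 and 86.1 TPM in the alignment-based tables and 178 and 188 in the direct tables, a log2 difference of 1.06 and 1.13. Ndufa5 followed with 0.58 and 0.59 (941 and 973 TPM in the direct tables), then Ndufa6 with 0.41 and 0.45 (341 and 359.6) and Ndufs3 with 0.35 and 0.38 (362 and 386). In the other direction stood Ndufab1 at -0.51 and -0.52, with 417 and 434 TPM in the direct tables. Ndufa10 (-0.30 and -0.23) and Ndufs8 (-0.20 and -0.16) were also lower there. The sign was the same in both libraries for each of these 7 genes.

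**Figure D3:**
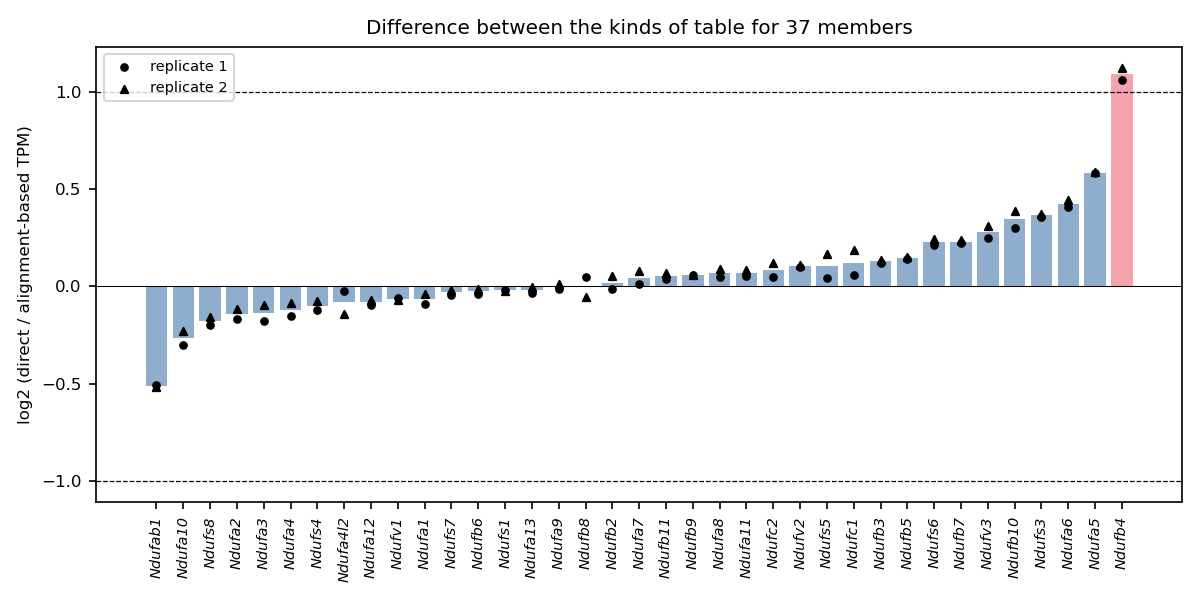
Log2 of direct over alignment-based TPM for 37 members; bars are the mean of the 2 libraries, circles replicate 1, triangles replicate 2, dashed lines 2-fold. Only Ndufb4 (red) passes 2-fold, and Ndufab1 is the lowest.

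Ndufb4 and 3 further members share their coding sequence with a processed copy elsewhere in the genome, an intron-less pseudogene. The 4 copies were singled out after their values were seen, as those with a mean of 5 TPM or more in either kind of table among the 8 genes that share at least 50% of their 31-base words with a member. No member has 50% of its own words in another gene, and the highest was Ndufs5 with 26.5%. Ndufb4 (chr16:37647170-37654453, minus strand, mm10), a distal arm subunit, is matched by Ndufb4c (chr15:73809507-73809896, minus strand), whose 390 bases equal its coding sequence with its stop codon at all 390 positions. The opening 120 bases of that coding sequence are shown, because by the reference sequence no read within them can tell the pair apart:
Ndufb4-201: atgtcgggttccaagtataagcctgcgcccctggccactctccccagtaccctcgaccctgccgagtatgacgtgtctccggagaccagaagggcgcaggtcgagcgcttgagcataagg
Ndufb4c-201: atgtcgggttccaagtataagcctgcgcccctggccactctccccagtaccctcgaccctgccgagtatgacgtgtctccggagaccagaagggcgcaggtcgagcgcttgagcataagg

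Ndufs5 (chr4:123712710-123718202, minus strand), a proximal arm subunit, aligned with BC002163 (chr16:42955631-42955949, plus strand) over 319 bases, of which 317 were identical. Both differences fall in the 90 coding bases below, where capitals mark the bases that differ:
Ndufs5-201: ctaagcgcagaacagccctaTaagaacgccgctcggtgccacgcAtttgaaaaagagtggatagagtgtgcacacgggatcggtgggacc
BC002163-201: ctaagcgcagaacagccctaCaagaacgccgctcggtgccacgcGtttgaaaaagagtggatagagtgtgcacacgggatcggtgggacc

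Ndufa12 (chr10:94198720-94221443, plus strand), an N module subunit, aligned with Gm15920 (chr5:130188395-130188796, plus strand) over 402 coding bases with 2 differences, of which 1 is in capitals in this stretch:
Ndufa12-204: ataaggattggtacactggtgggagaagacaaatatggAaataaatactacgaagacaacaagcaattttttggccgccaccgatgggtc
Gm15920-201: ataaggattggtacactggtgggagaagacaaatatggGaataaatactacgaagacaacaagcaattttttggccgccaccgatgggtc

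The 2 kinds of table divided the reads between gene and copy differently for 3 of these 4 pairs, and similarly for Ndufs5 and BC002163. Ndufb4c was given 273 and 272 TPM in the alignment-based tables, 76.3% and 76.0% of the pair's TPM, and 146 and 90.8 TPM in the direct tables, 45.1% and 32.5%. The pair together stood at 358.2 and 358.5 TPM in the alignment-based tables and at 324 and 279 in the direct tables. The summed pair differed by less than the gene alone, with a log2 of -0.14 and -0.36. BC002163 was given 38.4% and 42.2% of its pair in the alignment-based tables and 37.6% and 36.9% in the direct tables, but 24.2% and 27.2% of the pair's expected counts. Gm15920 took 16.7% and 16.4% in the alignment-based tables and 34.1% and 35.6% in the direct tables. Here the summed pair differed by a log2 of 0.24 and 0.31, and Ndufa12 alone by -0.09 and -0.07. Gm4459 (chr7:139659688-139660155, minus strand), a copy with 1 difference from Ndufab1 over 382 aligned bases, took 0.694% and 0.721% in the alignment-based tables and 31.2% and 34.3% in the direct tables. Ndufab1 and Gm4459 together stood at 597 and 626 TPM in the alignment-based tables and at 607 and 661 in the direct tables, so this pair's sum differed little. Levels of these 4 members are therefore uncertain by the share of their copies, and Ndufb4, the lowest structural subunit of the alignment-based tables, ranked above Ndufs8 and Ndufs5 in the direct tables. Genes and copies were compared in the reference sequence only, and CAST differences within them were not examined.

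**Figure D4:**
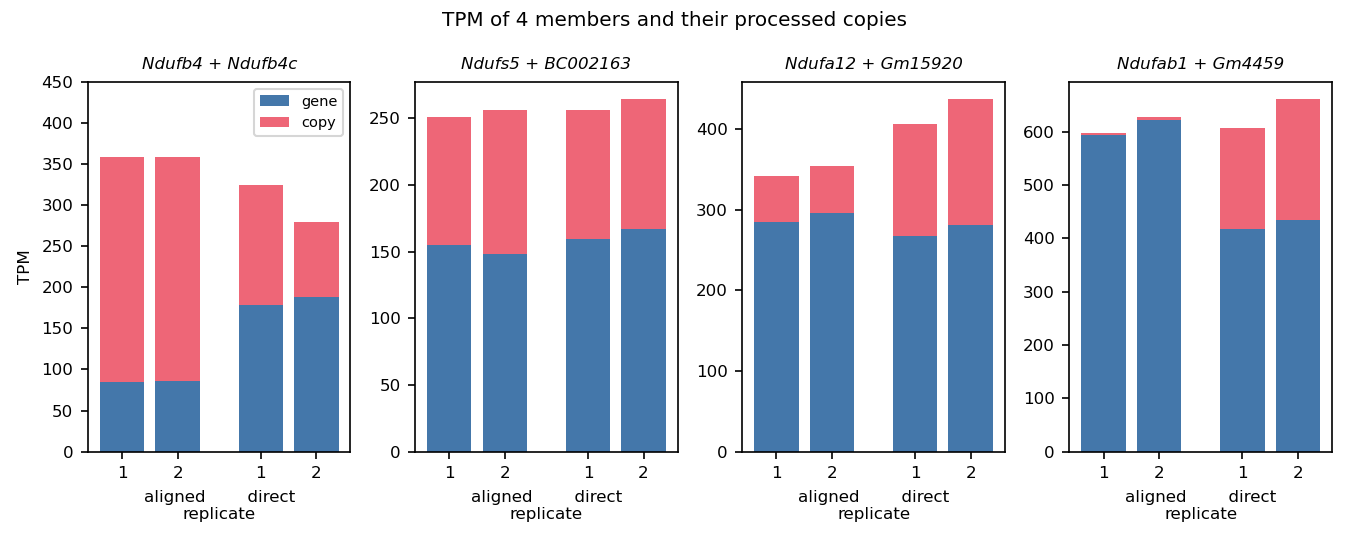
TPM of 4 members (blue) with that of the processed copy stacked on it (red), for replicates 1 and 2 in the alignment-based (left pair) and direct (right pair) tables. For Ndufb4 and Ndufab1 the bars' total differs less between the tables than the gene's part (84.8 and 86.1 against 178 and 188 TPM for Ndufb4).

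The members have 189 annotated transcripts, and 32 of the 38 have more than 1. A gene's main transcript, its most abundant one, was the same in both kinds of table and both libraries for 31 members, and for 25 of the 32 with more than 1 transcript. Over all 6419 such protein-coding genes it was the same for 75.3%, so the members were near the background. The 7 exceptions were Ndufa4, Ndufa5, Ndufa9, Ndufa10, Ndufs3, Ndufs7 and Ndufs8. In Ndufa4, the transcript Ndufa4-204 held 84.3% and 86.7% of the gene's TPM in the alignment-based tables and was listed at 0 in the direct tables, where Ndufa4-205 led with 62.0% and 54.8%. Both carry the same coding length of 246 bases. In Ndufa9, Ndufa9-203 led the alignment-based tables (97.1% and 95.8%) and Ndufa9-201 the direct tables (69.9% and 68.8%). In Ndufs8, Ndufs8-205 held 83.4% and 80.6% in the alignment-based tables and 44.3% and 45.0% in the direct tables, where Ndufs8-201 held 48.0% and 50.2%. In Ndufs7, Ndufs7-201 led the alignment-based tables (75.02% and 76.9%). The direct tables named a processed transcript of 722 bases in replicate 1 (38.3%) and Ndufs7-201 in replicate 2 (49.97%).

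Much of the level of some members lay on transcripts that are not annotated as protein-coding. Such classes include targets of nonsense-mediated decay, a pathway that removes messages with an early stop, transcripts that keep an intron, and processed transcripts with no open reading frame assigned. Summed over the members, protein-coding transcripts held 76.3% and 76.7% of TPM, retained-intron transcripts 9.95% and 9.79%, decay targets 6.97% and 6.91%, and processed transcripts 6.78% and 6.64%. In expected counts, which are not divided by transcript length, the protein-coding share was 86.1% and 86.4%. With more than 1 transcript, 7 of 32 members had under 50% of their TPM on protein-coding transcripts in the alignment-based tables, against 7.82% of 6419 such genes. In the direct tables the count was also 7, against 9.11%, and 6 members were in both. By expected counts it was 5. No share over all genes was taken by expected counts or for genes under 50% in both kinds of table. The members' median share on protein-coding transcripts was 90.3%, against 92.0% over all such genes. Both counts of 7 include Ndufb4 and Ndufab1, whose shares leave out reads given to their processed copies.

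Ndufa3 and Ndufs4 had the lowest shares on protein-coding transcripts in the alignment-based tables. In Ndufa3 the transcript Ndufa3-204, of 343 bases and annotated as a decay target, held 646 and 633 TPM, 90.6% and 91.0% of the gene, while the protein-coding Ndufa3-201 held 39.7 and 45.7 TPM. The direct tables gave Ndufa3-204 a similar 91.4% and 89.1%. This transcript contains 68.5% of the 31-base words of the gene's longest coding sequence, so most of that sequence is common to it and the coding forms. Ndufs4 had 10.3% and 7.50% of its TPM on protein-coding transcripts and 8.06% and 7.34% in the direct tables. Its decay-target transcript Ndufs4-204, which contains 92.9% of the words of its coding sequence, held 51.0% and 51.8%, and Ndufs4-202 held 23.96% and 26.7%.

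In Ndufc1, the retained-intron transcript Ndufc1-203 of 311 bases held 55.1% and 56.8% in the alignment-based tables and 69.7% in each library in the direct tables. It contains only 13.6% of the words of the coding sequence. The protein-coding Ndufc1-204, of 315 bases, held 37.9% and 35.8% in the alignment-based tables and 4.44% and 7.44% in the direct tables. Ndufab1 had 29.3% and 31.6% of its TPM on protein-coding transcripts, with the retained-intron Ndufab1-205 at 36.99% and 37.8%, and in the direct tables at 76.4% and 83.6%. The copy Gm4459 was given 190 and 226 TPM in the direct tables, so the Ndufab1 shares there depend on how reads were divided. In Ndufb4 the protein-coding share was 39.7% and 30.8%, and it was 41.1% and 46.5% by the direct tables. Counted in reads it was 56.5% over both libraries. These Ndufb4 shares leave out Ndufb4c, which equals the coding sequence. In the alignment-based tables Ndufb4c was given 273 and 272 TPM, against 33.7 and 26.5 for the coding Ndufb4-201. In Ndufa10 the protein-coding share was 35.9% and 38.1% (63.3% in expected counts), and the direct tables were led by the decay target Ndufa10-207 (37.8% and 40.5%). In Ndufa5 the processed transcript Ndufa5-204 led the alignment-based tables with 59.1% and 60.6%. The direct tables put 64.6% and 62.8% on the coding Ndufa5-202, so the class of this gene's main transcript changed with the table. Ndufs3 was under 50% in the direct tables only, with 44.6% and 46.1% against 61.1% and 60.3% in the alignment-based tables.

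The main transcript held under 80% of the alignment-based TPM in 14 members, of which 6 are not yet described and had a coding main transcript, the same in both kinds of table. Among these were Ndufs1 with Ndufs1-201 (62.1% and 60.8%), Ndufb5 with Ndufb5-203 (59.996% and 61.7%) and Ndufv1 with Ndufv1-201 (61.1% and 59.9%). Also among them were Ndufb8 with Ndufb8-201 (72.6% and 71.3%) and Ndufa11 with Ndufa11-201 (70.03% and 69.3%). In Ndufs1 the 2 leading transcripts, Ndufs1-201 and Ndufs1-203, share a coding length of 2181 bases. The share of all genes with a main transcript under 80% was not computed, so the count of 14 only served to name genes.

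**Figure D5:**
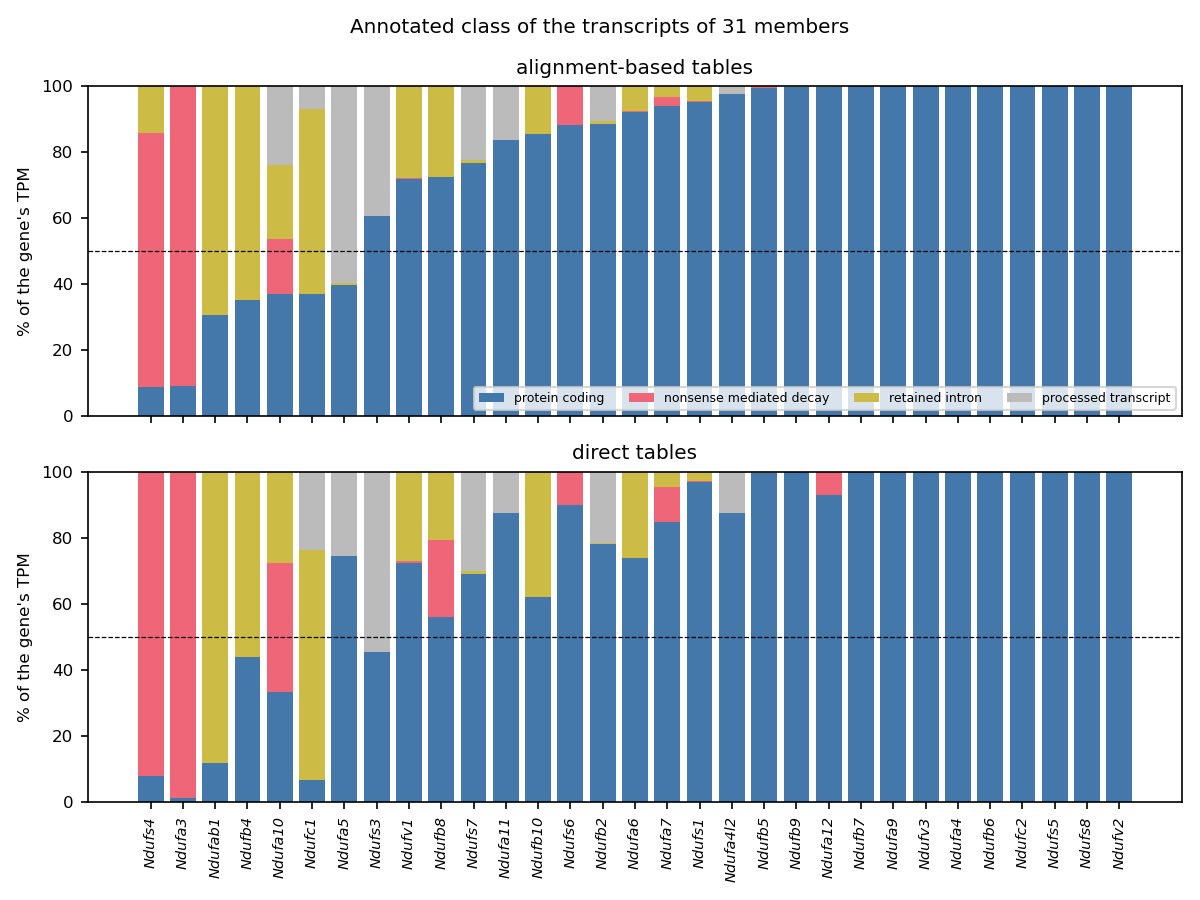
Percent of each gene's TPM (mean of the 2 libraries) by annotated transcript class for 31 members with more than 1 transcript, in the alignment-based (top) and direct (bottom) tables; the dashed line marks 50%. Ndufs4 and Ndufa3 are mostly on decay-target transcripts in both panels, and Ndufa5 and Ndufs3 cross the line between panels.

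Ndufv3 is made in a short and a long form that differ by a large internal exon. Its short form, Ndufv3-202 of 3 exons, skips the 1092-base exon 3 of the 4-exon long form Ndufv3-201 (chr17:31527310-31528401 in mm10, coding exon). The reading frame has 104 codons in the short form and 468 in the long one. The junctions that tell the forms apart are shown, with the bases after the junction in capitals:
Ndufv3-202, exon 2 to the last exon: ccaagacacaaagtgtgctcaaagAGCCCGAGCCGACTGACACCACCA
Ndufv3-201, exon 2 to exon 3: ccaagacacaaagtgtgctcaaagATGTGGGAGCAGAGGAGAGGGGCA
Ndufv3-201, exon 3 to the last exon: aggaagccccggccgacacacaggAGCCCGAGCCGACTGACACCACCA

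The short form held nearly the whole level of the gene, with 492 and 500.1 TPM against 3.35 and 4.09 for the long form. Its share was 99.2% and 99.03% in the alignment-based tables and 99.3% and 99.2% in the direct tables. In reads the long form had 192 and 202 expected counts and the short form 7493 and 6558, so the long form was rare but detected in both libraries.

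The members were also compared by position and promoter, which the rule did not use. A protein-coding gene starting on the other strand within 1000 bases upstream, a head-to-head neighbour, was found for 9 of 38 members (23.7%), against 6.76% of 22015 nuclear protein-coding genes and 10.4% of the 6695 with at least 5 TPM in both libraries. The closest was the ribosomal protein gene Rps28, 10 bases from the start of Ndufa7. Ndufa7 stood at 234 and 233 TPM and Rps28 at 265 and 259. Levels of the other neighbours were far below the member's, from Morn5 beside Ndufa8 (0.0402 and 0 TPM) to Ik beside Ndufa2 (24.4 and 26.2). Other genes overlapped 20 of the members (52.6%), against 46.4% of all nuclear protein-coding genes and 56.9% of those with at least 5 TPM. For 16 members (42.1%) the overlap was with a gene on the other strand, against 36.6% and 45.4%. The most abundant of the overlapping genes was Eef1b2 (159 and 158 TPM), which overlaps Ndufs1. Whether the counting used the strand is not stated, so reads in such overlaps are uncertain.

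RefSeq promoter windows of GRCm38.p6, from 250 bases before to 50 after a start, were matched for 33 members. They were searched on both strands for short cores of factors known to act on respiratory genes, and no matches of different motifs overlapped in them. CGCANGCGC, the core bound by nuclear respiratory factor 1 (NRF-1), was found for 9 of 33 members (27.3%) and 9.68% of all 17491 protein-coding genes. AAGATGGC, a YY1 core, was found for 7 (21.2%) against 3.57%. CCGGAAG, a GABP core, was found for 4 (12.1%) against 12.9%, and TATAAA for 4 (12.1%) against 14.8%. TCAAGGTCA, an estrogen-related receptor core, was found for 0 members and 0.377% of genes. Of the 9 genes with the NRF-1 core, Ndufs5 and Ndufa11 are shown, since their matched stretches lie outside the annotated gene, with the core in capitals:
Ndufs5, chr4:123718250-123718308, minus strand: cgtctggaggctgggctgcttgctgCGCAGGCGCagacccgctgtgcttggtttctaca
Ndufa11, chr17:56717677-56717736, plus strand: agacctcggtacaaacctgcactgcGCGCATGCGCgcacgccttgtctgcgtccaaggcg

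The core begins 97 bases before the start in Ndufs5. In Ndufa11 the capitals span 10 bases from 60 bases before the start, which hold 2 overlapping matches, 1 on each strand. These are matches of letters, and binding was not measured. The members' windows had a median GC content of 59%, against 56.3% over all protein-coding windows. Shares with a motif were not compared at equal GC content or among expressed genes only.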

How the data were processed

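Expected counts, estimated counts and TPM were deposited by the authors for genes and transcripts on mm10 with GENCODE M21, as unnormalised and as length-corrected estimates, per the file headers. Percentages of a gene's TPM per transcript were deposited beside them. Credibility bounds of the TPM, a signal never below 0, were also deposited by the authors, and the upper bound was 1.06 times the lower at the members' median in each library. No aligner, quantifier or version is given in the sources used here. Libraries were made with a directional kit from 300 ng of RNA with ERCC spike-ins, per the labels.

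TPM was rescaled to endogenous genes, and direct estimates were added up per gene. Expected counts were rounded and scaled with TMM in edgeR 4.0.16 (R 4.3.3), and log2 ratios carried a prior count of 2. The kinds of table were compared where either reached 5 TPM in each library. The calculation of the ratios was checked on simulated data with a spread set by hand, which does not measure the spread of these libraries. Words of 31 bases were compared between annotated transcripts, and copies were aligned with Biopython 1.88. Other steps used Python 3.11.15, pandas 2.3.3, numpy 2.4.6, scipy 1.17.1 and matplotlib 3.10.9. DESeq2 1.42.0 gave an alternative scaling.

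The members and lists were chosen with earlier results of these data known. Genes were named by rule: the highest and lowest levels, the largest replicate and table differences, divided main transcripts, and Ndufv3, Ndufa4, Ndufa4l2 and Ndufab1. The tables held no entry under 2 symbols of the lists. Protein sequences were not used here. Values of 1 member are not reported here, though counts and medians over the members include it.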

Additional observations from a re-analysis of the deposited data

How the results depend on the processing

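The direct tables gave a median of 301 TPM and a sum of 13753 for the 38 genes, against 288 ± 9.69 and 13233 ± 226 (SD, n = 2), and 8965 TPM for the median of the mitochondrially encoded subunits, against 7292. Rescaled to nuclear protein-coding genes, the values were 849, 39029 and 21517 TPM, and 57.4 for the assembly factors against 19.5, since the total is smaller by construction. Without Ndufa4 and Ndufa4l2 the sum was 12076. The median log2 ratio was -0.02, and with spike-in totals it was 0.20, while all genes moved to 0.21. The other 41 alternative values for levels, ratios, tables and main transcripts stayed on their side or within the spread, and each library alone kept the count of genes 2-fold apart between tables at 1. Several of these values could not have come out otherwise. With n = 2, a level from 1 library alone always lies within the SD. No gene of these sets fell under 1 TPM, and no member fell under the minimum count or TPM of its comparison. Taking out Ndufa4 and Ndufa4l2, the highest and lowest members, cannot move the median.

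The alternatives for transcript classes and copies were chosen after seeing the data. Under expected counts the share of a pair on its copy was 62.9% for Ndufb4c against 76.2%, 25.7% for BC002163 against 40.3% and 10.8% for Gm15920 against 16.6%. By the direct tables it was 38.8% for Ndufb4c, 34.9% for Gm15920, and 32.7% for Gm4459 against 0.708%. No paired analysis was possible because there was 1 group. The count-based precision is set by depth, and Ndufa4l2, with a mean of 203 counts, had the widest interval.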
